A study of Mus musculus with 36 samples.

Results

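The genes described here are 50 mouse genes of mitosis, among them the kinases that start it, the kinetochore proteins, the mitotic motors and the condensins. They were chosen by symbol, and each gene was read from the array probe set that carried its symbol and no other. Of the 50 genes, 47 were measured, out of 22180 genes with such a probe set, and each of the 47 had 1 probe set and was among the 13082 genes tested. Ccnb1 and Ncapg matched no probe set with a single symbol, and Sgol1 stood under its current symbol Sgo1, so its values are given apart from the 47.

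The cells were CD4 T cells from mice lacking TRIM28 (KO) and from WT littermates, in 36 samples that form 12 groups of 3. TRIM28 silences chromatin at sites to which KRAB zinc-finger factors recruit it. In the 6 KO and WT pairs of groups, sorted naive cells were profiled either directly or after 72 h of stimulation through CD3 (antibody bound to the plate) and CD28 (soluble antibody). The stimulated conditions were Th0, meaning stimulation with no named lineage, and the lineage conditions Th1, Th2, Th17 and Treg. What drives the deletion, the age and strain of the mice and the cytokines of each lineage condition are not given in the sources used here. Whether replicate samples stem from different mice is not stated, and the p-values therefore rest on sample-to-sample spread, which may be technical. Levels are log2 intensities after robust multi-array averaging (RMA), and a change is a difference of log2 group means, followed by its standard error (SE). A gene was called at an adjusted p under 0.05, from a limma fit to all 36 samples with Benjamini-Hochberg adjustment over the 13082 genes.

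A cell enters mitosis when CDK1 with its cyclins, aided by the Polo and Aurora kinases, condenses the chromosomes and builds the spindle. Kinetochores, assembled on centromeric chromatin marked by the histone variant CENP-A, tie each chromosome to microtubules, and the spindle checkpoint holds back anaphase until all are attached. Most of these genes are kept off in resting cells and are switched on late in the cell cycle, by the DREAM complex, B-MYB and FOXM1 acting at CHR elements and CCAAT boxes in their promoters. Naive T cells rest, and stimulation through CD3 and CD28 drives them to divide.

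Promoters of 5 genes are shown, because these genes span the range of behaviour described below. Cdk1, Plk1 and Mki67 moved with most of the genes. With all samples, Bub1 had the largest change between KO and WT cells in Th0, Th1 and Th2, and Cenpa was among those with the smallest. Each window holds 250 bases before and 50 after a transcript start that RefSeq annotates for the gene, 300 in all, in RefSeq's GRCm38.p6 build and on the strand of the gene. The windows lie at chr10:69352863-69353162 (Cdk1, minus strand), chr7:122159185-122159484 (Plk1, plus), chr7:135716330-135716629 (Mki67, minus), chr2:127831810-127832109 (Bub1, minus) and chr5:30666636-30666935 (Cenpa, plus). The transcript start is the outermost one of the gene in Cdk1, Plk1 and Bub1, and lies 9 bases downstream of it in Cenpa and 71 in Mki67. Capitals mark the CHR letters TTTGAA or TTTAAA, the CCAAT letters and the E2F letters TTCCCGC (also with CG, GC or GG in place of the first CC), searched on both strands, so that ATTGG is CCAAT on the other strand.
Cdk1: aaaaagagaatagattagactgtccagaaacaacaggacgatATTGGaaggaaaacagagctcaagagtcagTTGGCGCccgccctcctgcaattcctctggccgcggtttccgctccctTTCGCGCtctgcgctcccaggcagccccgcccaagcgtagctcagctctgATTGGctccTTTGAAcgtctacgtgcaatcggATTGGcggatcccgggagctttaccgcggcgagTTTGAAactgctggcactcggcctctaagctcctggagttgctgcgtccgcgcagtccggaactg
Plk1: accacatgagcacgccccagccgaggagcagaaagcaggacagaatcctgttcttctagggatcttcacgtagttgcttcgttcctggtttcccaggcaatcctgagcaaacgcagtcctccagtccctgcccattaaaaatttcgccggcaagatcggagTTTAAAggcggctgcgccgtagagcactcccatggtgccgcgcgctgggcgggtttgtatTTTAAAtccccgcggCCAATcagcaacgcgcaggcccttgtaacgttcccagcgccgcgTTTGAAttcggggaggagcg
Mki67: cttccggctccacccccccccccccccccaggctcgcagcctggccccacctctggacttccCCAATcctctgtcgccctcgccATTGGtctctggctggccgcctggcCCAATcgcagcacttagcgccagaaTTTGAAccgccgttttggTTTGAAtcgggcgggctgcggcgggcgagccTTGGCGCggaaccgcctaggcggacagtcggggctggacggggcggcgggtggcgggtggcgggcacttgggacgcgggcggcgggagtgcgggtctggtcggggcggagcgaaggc
Bub1: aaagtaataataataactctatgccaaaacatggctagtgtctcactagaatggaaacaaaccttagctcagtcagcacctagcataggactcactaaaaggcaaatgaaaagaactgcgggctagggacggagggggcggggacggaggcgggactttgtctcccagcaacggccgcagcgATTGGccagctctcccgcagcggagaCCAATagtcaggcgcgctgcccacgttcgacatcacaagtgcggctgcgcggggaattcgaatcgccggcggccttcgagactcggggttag
Cenpa: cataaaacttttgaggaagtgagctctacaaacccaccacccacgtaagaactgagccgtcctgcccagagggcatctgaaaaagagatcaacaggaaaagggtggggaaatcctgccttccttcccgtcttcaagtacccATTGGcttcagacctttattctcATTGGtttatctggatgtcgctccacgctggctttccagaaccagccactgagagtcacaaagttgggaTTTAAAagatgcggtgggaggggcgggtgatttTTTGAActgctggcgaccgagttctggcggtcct
In the Cdk1 window, CHR letters began 71 and 15 bases before the transcript start (positions -71 and -15), with 3 CCAAT matches and 2 E2F matches. An E2F match that starts with TTGG can share letters with a CCAAT match on the other strand, but no printed pair does.

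Of the 47 measured genes, 38 had a promoter in the RefSeq table, in 40 windows. CHR letters stood in 32 of the 40 windows (80%), against 27.6% of all 32851 promoter windows of the same length. CCAAT stood in 26 (65%), against 37.4% of all windows, and 24 windows (60%) held both, against 10.7% of all. E2F letters stood in 9 windows (22.5%), against 9.57% of all. In 63 windows of 55 mitosis genes outside the list, the shares were 55.6% for CHR, 66.7% for CCAAT, 41.3% for both and 27% for E2F. The 38 genes with a window thus had a larger share of windows with CHR letters, and with both CHR and CCAAT, than these. Their shares with CCAAT or with E2F letters were not larger, and none of these differences was tested. Mad2l1, Nuf2 and Nusap1 had none of these letters in windows at their outermost start. Of the 40 windows, 35 stood within 100 bases of the outermost start of their gene. The window of Pttg1 stood 1482 bases downstream of it and that of Kif2c 3852, so they do not describe that start. A match is a description of letters, and the array data do not bear on which factor is bound there.

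Trim28 itself lay between 7.20 and 7.86 in naive KO samples and between 5.51 and 6.58 in stimulated KO samples, against 9.21 to 9.99 in the 18 WT samples. The samples had the markers of T cells, with all 9 measured T-cell genes above the table-wide median of 5.26 in every group and a mean over the 9 between 10.8 and 11.3 in every sample. Of the genes of other cells, at most 2 of 8 B-cell genes, 4 of 10 myeloid genes, 3 of 7 CD8 and NK genes and 1 of 3 erythroid genes were above that median in any group. The medians of the arrays ran from 5.18 to 5.35. In bulk samples such as these, fewer dividing cells and less mRNA per cell cannot be told apart.

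The KO samples of Th0 and of Th1 that carry the number 1 stood apart from the rest of their groups. KO Th0 sample 1 had the lowest level of its group for 46 of the 47 genes, by a median of -1.83 from the mean of the other 2 samples. KO Th1 sample 1 was likewise the lowest for 46 of the 47, by a median of -1.88. The median over genes of the within-group SD was 1.10 in KO Th0 and 1.11 in KO Th1, and lay between 0.06 and 0.40 in the other 10 groups. The main counts and medians over the 47 genes that rest on these samples are therefore given with and without them. Values of single genes are mostly given with all samples, and those of other gene lists only so. Both low samples also set the spread of these genes that limma shares among all groups, and so bear on comparisons that hold neither sample.

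**Figure D1:**
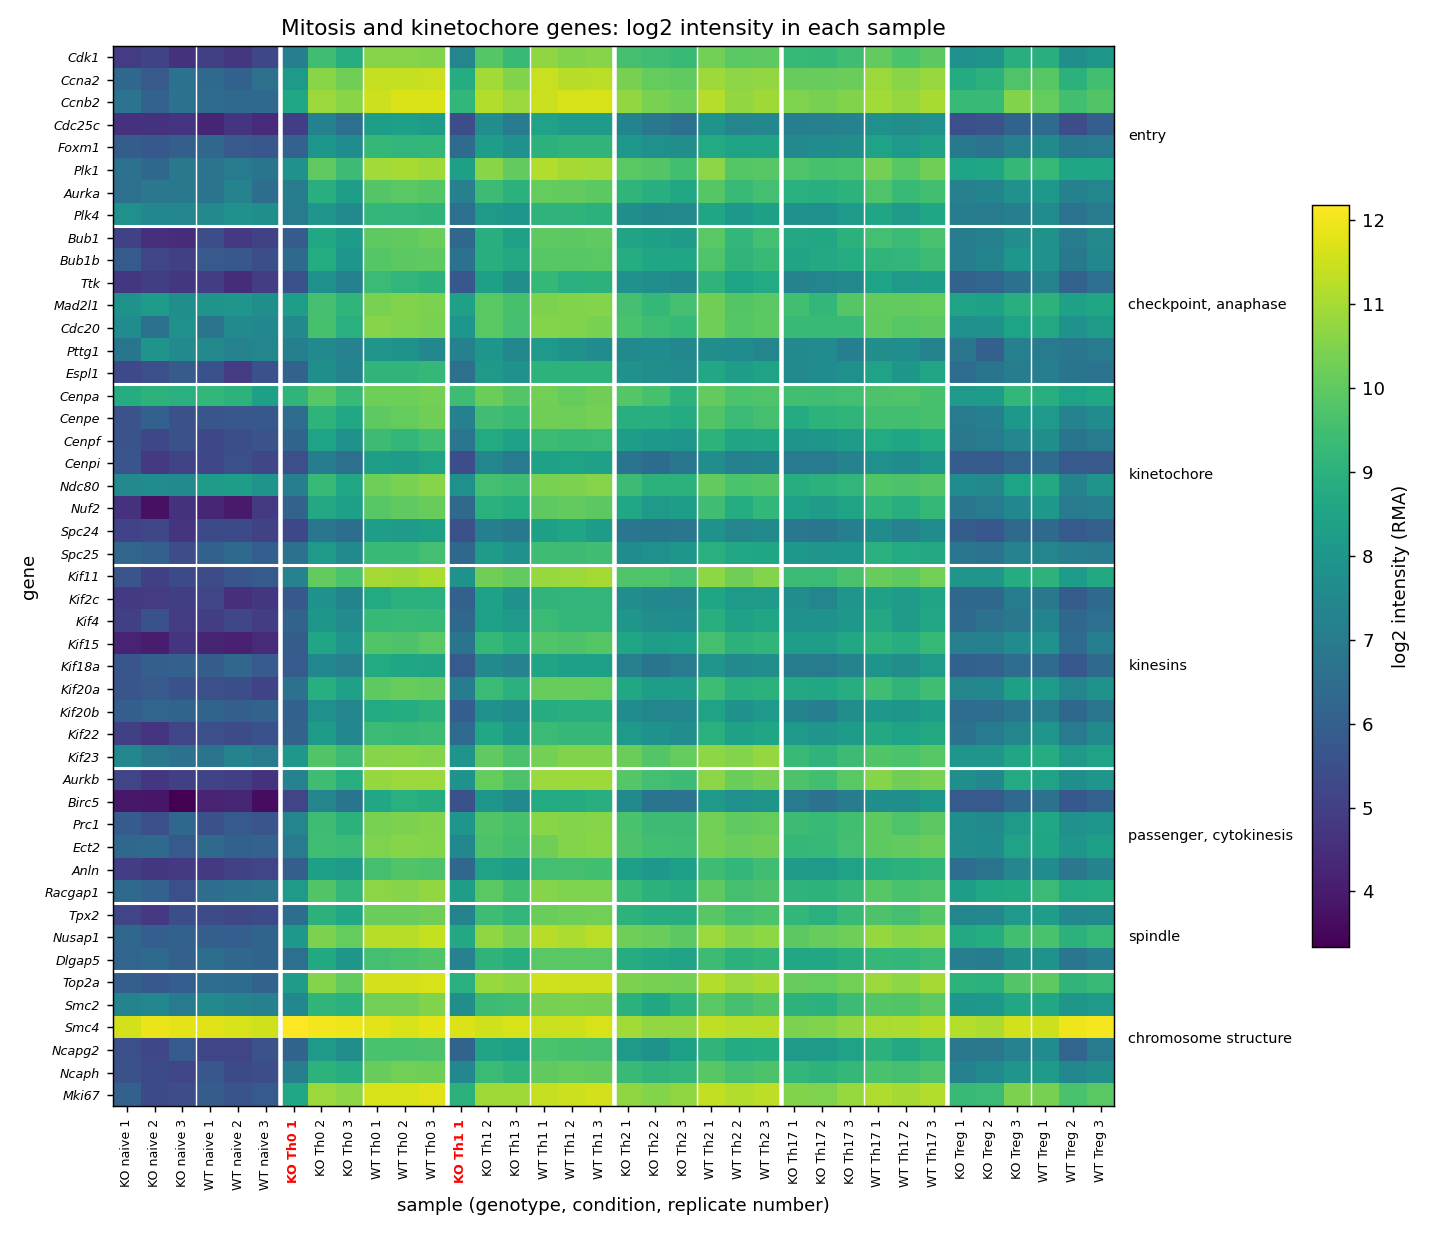
Log2 intensity (RMA, colour scale) of the 47 genes, in rows ordered by role, in each of the 36 samples, in columns ordered by condition with KO left of WT. Colours compare samples within a gene, not genes with each other. KO Th0 sample 1 and KO Th1 sample 1, labelled in red, are darker than the other 2 samples of their groups in nearly every row, and Smc4 keeps a like colour in all columns.

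Stimulation of WT cells shows what these genes do in dividing T cells. In WT Th0 over WT naive cells, 45 of the 47 genes rose, where 31.2% of all genes tested rose, and all 45 by at least 2-fold, against 9.39% of all genes. For 45 genes all 3 WT Th0 samples lay above all 3 WT naive samples (36.1% of all genes tested). The median change over the 47 was 4.13, against 0.04 over all genes tested.

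Mki67, whose protein coats mitotic chromosomes, and Aurkb, the kinase of the chromosomal passenger complex, had the largest changes. Aurkb had levels of 10.79, 10.85 and 10.84 in WT Th0 samples, against 5.10, 5.0 and 4.62 in WT naive samples, a change of 5.92 (SE 0.42, adjusted p = 3.8e-12). Its naive levels all lay below the table-wide median of 5.26 that served as the filter level, and with the naive level held at that median the change was 5.57, or at least 47.5-fold. Mki67, with naive levels above the median, rose by 5.89 (SE 0.42), which was the largest change of the 47 on that footing. Nuf2, a subunit of the NDC80 complex that holds microtubules, was at 5.65 (SE 0.49), and at 4.76 with its naive level held at the median. In all, 9 of the 47 genes had all WT naive samples below the median, and the median change over the 47 with naive levels held there was 3.92. Cdk1, the kinase that triggers mitosis, rose by 5.55 and Kif11, the motor that pushes spindle poles apart, by 5.36.

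The genes that did not follow were Smc4 and Pttg1. Smc4, an ATPase subunit of condensin, had levels of 11.80, 11.64 and 11.82 in WT Th0 samples, against 11.77, 11.65 and 11.54 in WT naive samples (change 0.10, SE 0.12, adjusted p = 0.52). Its levels overlapped between the groups. Pttg1, the securin that restrains separase, had a change of 0.37 (SE 0.24, adjusted p = 0.201). Smc2, the partner of SMC4 in condensin, rose by 3.04 and Espl1, which encodes separase, by 3.81. Cenpa rose least of those that passed, by 1.40 (SE 0.24, 2.64-fold).

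In KO Th0 over KO naive cells, 42 of the 47 genes rose (26.2% of all genes tested rose), 40 of them by at least 2-fold (5.24%). The median change was 2.10, against 0.06 over all genes tested. Mki67 had the largest change, with levels of 8.61, 10.86 and 10.64 in KO Th0 samples, against 6.05, 5.32 and 5.41 in KO naive samples (4.45, SE 0.42, 21.8-fold). All Th0 samples lay above the naive ones, and sample 1 was the lowest of the Th0 group. Top2a, the topoisomerase that untangles sister chromatids, rose by 3.69 and Kif11 by 3.65. Plk4, the kinase of centriole duplication, had a change of -0.05 (SE 0.26, adjusted p = 0.91) in KO cells, with levels of 7.02, 7.96 and 7.54 in KO Th0 samples against 7.78, 7.45 and 7.43 in KO naive samples. In WT cells it rose by 1.46 (SE 0.26, adjusted p = 2.58e-05). The other genes that did not pass in KO cells were Ndc80 (0.79), Cenpa (0.50), Smc4 (0.28) and Pttg1 (-0.08). With KO Th0 and KO Th1 samples 1 left out, 44 genes passed (38.4% of all genes tested in either direction), with a median change of 2.72.

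**Figure D2:**
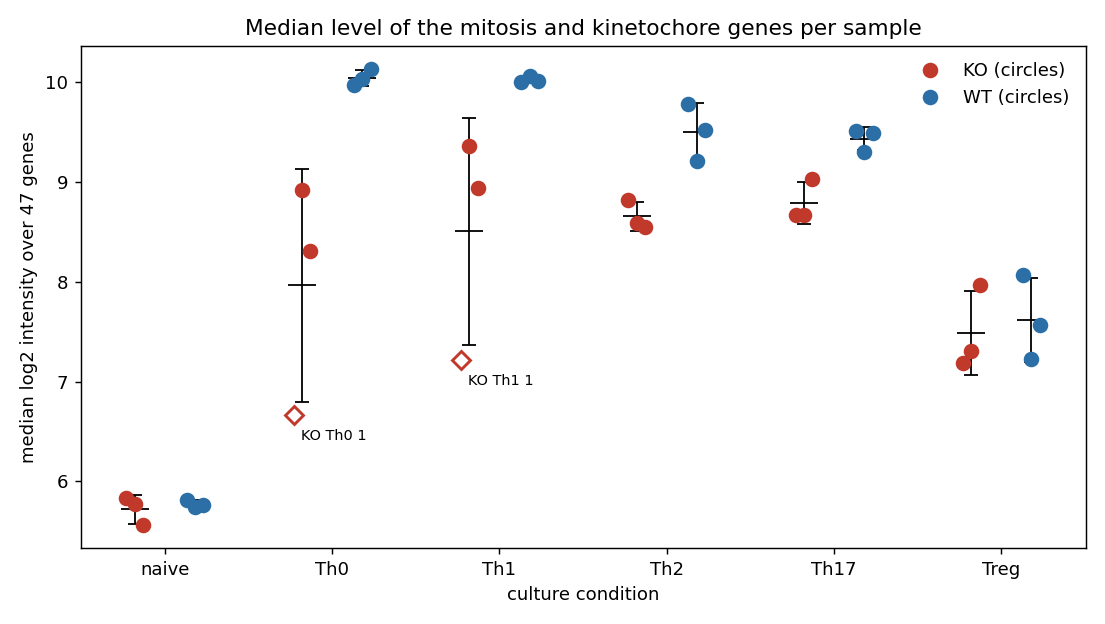
Median log2 intensity (RMA) over the 47 genes for each sample, by culture condition, with KO (red) left of WT (blue). Horizontal bars and whiskers are the mean and SD of 3 samples, and open diamonds are KO Th0 sample 1 and KO Th1 sample 1, at 6.67 and 7.22. KO samples lie below all WT samples in Th0, Th1, Th2 and Th17, and among them in naive cells and Treg.

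The comparison of KO with WT cells under each condition asks how the absence of TRIM28 bears on this program. The median over the 47 genes was 6.67, 8.92 and 8.31 in the KO Th0 samples, against 9.97, 10.03 and 10.14 in the WT Th0 samples. The means of these were 7.97 ± 1.17 in KO and 10.05 ± 0.08 in WT (SD, n = 3 each). All KO samples lay below all WT samples, and the KO samples were far more spread.

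In Th0, 45 of the 47 genes were lower in KO than in WT cells, where 19.6% of all genes tested were called lower, and 44 of the 45 by at least 2-fold, against 4.31% of all genes. For 45 genes all KO samples lay below all WT samples, as they did for 26.2% of all genes tested. The median change was -1.92, against 0.00 over all genes tested. Without KO Th0 and KO Th1 samples 1, the same 45 genes were called (28.9% of all genes tested in either direction), with a median change of -1.31, smaller than with all samples. Bub1 was then at -1.65, Cdk1 at -1.40, Kif11 at -1.15 and Mki67 at -0.94. The values of single genes that follow are with all samples unless stated.

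The genes of entry into mitosis fell in KO Th0 cells as a group, 8 of 8, with changes from -2.08 to -1.61. Cdk1 had levels of 7.13, 9.46 and 8.84 in KO Th0 samples, against 10.58, 10.59 and 10.50 in WT Th0 samples (-2.08, SE 0.45, 4.21-fold lower, adjusted p = 0.000554). The groups did not overlap, and sample 1 was the lowest in KO. Foxm1, the transcription factor that drives late cell cycle genes, had 6.11, 7.98 and 7.65 in KO Th0 samples, against 9.23, 9.14 and 9.19 in WT Th0 samples (-1.94, SE 0.34, adjusted p = 5.47e-05). Its KO levels again lay wholly below its WT levels. Plk1, the Polo kinase of spindle and cytokinesis, fell by 1.86 on the log2 scale, and Ccnb2, which encodes cyclin B2, had the smallest change of the group, -1.61.

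Of the genes of the spindle checkpoint and of anaphase, 6 of 7 fell in KO Th0 cells. Bub1, a checkpoint kinase at the kinetochore, had the largest change of all 47 genes, with levels of 5.89, 8.63 and 8.18 in KO Th0 samples, against 9.99, 10.00 and 10.16 in WT Th0 samples (-2.48, SE 0.47, 5.59-fold lower, adjusted p = 0.000163). The groups lay apart, and sample 1 was the lowest in KO. Without KO Th0 and KO Th1 samples 1, Bub1 (-1.647) no longer ranked first. Ncapg2 (-1.757), Birc5 (-1.721), Ttk (-1.678) and Aurkb (-1.649) then had larger changes. Ttk, which encodes the checkpoint kinase MPS1, fell by 2.32 and Bub1b, whose protein BUBR1 is part of the checkpoint complex, by 2.20. Pttg1 was the exception, with levels of 7.16, 7.57 and 7.26 in KO Th0 samples, against 7.93, 7.89 and 7.42 in WT Th0 samples (-0.42, SE 0.24, adjusted p = 0.187). Its groups overlapped.

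All 8 centromere and kinetochore genes fell in KO Th0 cells, with changes from -2.31 (Nuf2) to -0.84 (Cenpa). Cenpa had levels of 9.12, 9.87 and 9.28 in KO Th0 samples, against 10.22, 10.23 and 10.33 in WT Th0 samples (-0.84, SE 0.24, adjusted p = 0.0066). The levels did not overlap, although the change was 1.79-fold, and without KO Th0 sample 1 and KO Th1 sample 1 it was -0.69 (adjusted p = 0.0435). Ndc80, Spc24 and Spc25, whose products form the NDC80 complex with NUF2, fell by 2.05, 2.08 and 1.96 on the log2 scale.

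The 9 mitotic kinesin genes all fell as well, with changes from -2.31 to -1.48. Kif15, a motor that helps keep the spindle bipolar, had the largest change (-2.31, SE 0.47), and Kif23, a motor of the central spindle, the smallest (-1.48, SE 0.36). Kif11 had levels of 7.25, 10.05 and 9.66 in KO Th0 samples, against 10.99, 10.94 and 11.10 in WT Th0 samples (-2.02, SE 0.48, 4.05-fold lower, adjusted p = 0.0014). All KO levels were below the WT levels, with sample 1 far below the other KO samples.

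The 6 chromosomal passenger and cytokinesis genes and the 3 spindle assembly genes fell too. Birc5, which encodes the passenger protein survivin, had levels of 5.17, 7.37 and 6.77 in KO Th0 samples, against 8.61, 8.94 and 8.81 in WT Th0 samples (-2.35, SE 0.43, 5.10-fold lower, adjusted p = 0.000105). Its KO levels lay below every WT level. Aurkb fell by 2.29, Anln, an actin-binding protein of the cleavage furrow, by 2.17, and Racgap1, which with KIF23 forms centralspindlin, by 1.61. Tpx2, which activates Aurora A on the spindle, fell by 2.13 and Nusap1, a microtubule-bundling protein, by 1.76.

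Of the genes of condensin and chromosome structure, 5 of 6 fell in KO Th0 cells. Ncapg2, a subunit of condensin II, had levels of 6.18, 8.09 and 7.72 in KO Th0 samples, against 9.65, 9.64 and 9.70 in WT Th0 samples (-2.33, SE 0.42, 5.04-fold lower, adjusted p = 7.56e-05). Mki67 had 8.61, 10.86 and 10.64 in KO Th0 samples, against 11.66, 11.66 and 11.77 in WT Th0 samples (-1.66, SE 0.42, adjusted p = 0.0024). Neither gene overlapped between the groups. Smc4 stood apart from the other 46, with 12.18, 12.01 and 11.95 in KO Th0 samples, against 11.80, 11.64 and 11.82 in WT Th0 samples (0.29, SE 0.12, adjusted p = 0.0655). Its KO samples all lay above its WT samples, but the difference was not called.

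**Figure D3:**
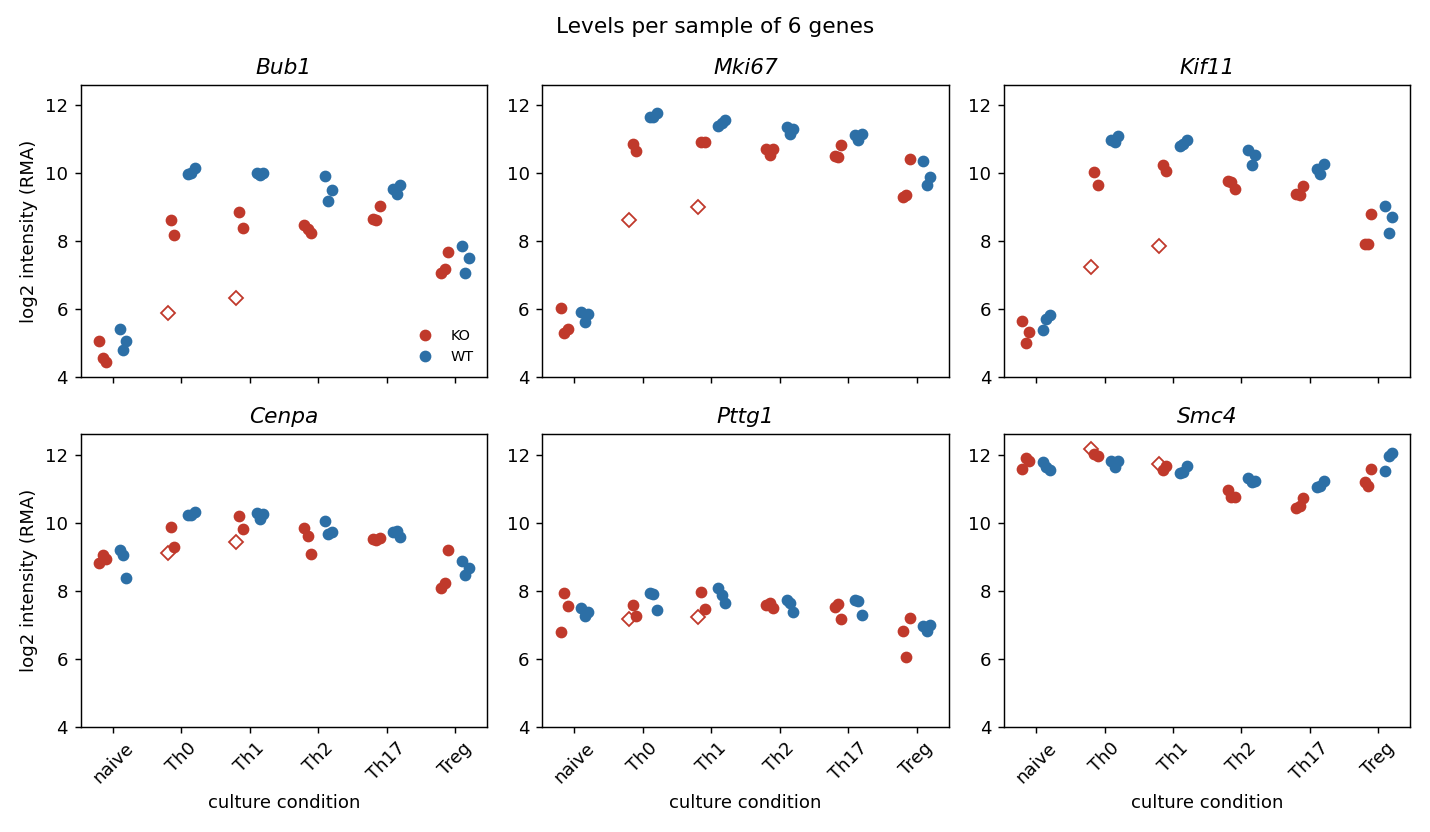
Log2 intensity (RMA) per sample of 6 genes by culture condition, KO (red) left of WT (blue), with 3 samples a group and the open diamonds marking KO Th0 sample 1 and KO Th1 sample 1. Bub1, Mki67 and Kif11 are low in naive cells and high in stimulated ones, with KO below WT from Th0 to Th17. Cenpa rises by 1.40 in WT Th0 over WT naive cells and is lower by 1.59 in WT Treg than in WT Th0 cells, smaller steps than those of Bub1, Mki67 and Kif11, and Smc4 stays above 10.4 in all samples.

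In Th1, 44 of the 47 genes were lower in KO than in WT cells (23.7% of all genes tested were called lower), all 44 by at least 2-fold (4.85%). For the same number of genes, 44, the KO samples lay wholly below the WT samples, as they did for 29.8% of all genes tested. The median change was -1.52, against -0.03 over all genes tested. The 2-fold count depended on KO Th1 sample 1. Without KO Th0 and KO Th1 samples 1, the median change was -0.94, and most of the 47 genes were lower by less than 2-fold. The median over the 47 genes was 7.22, 9.36 and 8.94 in KO Th1 samples, against 10.00, 10.07 and 10.01 in WT Th1 samples. Every KO sample was lower than every WT sample.

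Bub1 again had the largest change in Th1, with 6.34, 8.87 and 8.41 in KO Th1 samples, against 10.00, 9.94 and 10.01 in WT Th1 samples (-2.11, SE 0.47, 4.33-fold lower, adjusted p = 0.000777). Spc25 followed, with 6.33, 8.19 and 7.78 in KO Th1 samples, against 9.44, 9.40 and 9.46 in WT Th1 samples (-2.0, SE 0.31, adjusted p = 1.21e-05). Both genes had no overlap between the groups, and KO sample 1 was the lowest for each. Without KO Th0 and KO Th1 samples 1, Spc25 had the largest change (-1.44) and Bub1 was at -1.35. Nuf2 fell by 1.94, Cdk1 by 1.74, Plk1 by 1.35 and Mki67 by 1.20 on the log2 scale. Cenpa (-0.42, SE 0.24, adjusted p = 0.172), Pttg1 (-0.31, SE 0.24, adjusted p = 0.333) and Smc4 (0.11, SE 0.12, adjusted p = 0.533) were not called.

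The number of genes called moved more with the low sample in Th1 than in Th0, where 42 were called without KO Th0 sample 1. The median change shrank in both conditions. Without KO Th1 sample 1, 25 of the 47 genes were called, and the median change was -0.94. Here and below, no share over all genes tested is given for fits with 1 sample left out or with a replicate block. Counts from those fits do not show whether the 47 genes lost or gained more calls than other genes. Without both low samples, 41 were called (29.7% of all genes tested in either direction), and the genes no longer called were Ccna2, Ccnb2 and Mki67. Mki67 was then at -0.55 (adjusted p = 0.0757), while Bub1 was at -1.35 (adjusted p = 0.000104). Fitted to the KO and WT Th1 samples alone, 30 were called (36% of all genes tested). The KO Th0 and KO Th1 samples of the same number also deviated together from their group means, as given with the processing, so the Th0 and Th1 results are not independent of each other.

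In Th2 and Th17 the KO cells were lower by less, with little spread. The median over the 47 genes was 8.82, 8.59 and 8.55 in KO Th2 samples, against 9.78, 9.21 and 9.52 in WT Th2 samples. In Th17 it was 8.67, 8.67 and 9.03 in KO samples, against 9.51, 9.30 and 9.49 in WT samples. In both conditions all KO samples lay below all WT samples.

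In KO over WT cells of Th2, all 47 changes were negative, with a median of -0.70 against -0.02 over all genes tested. For 44 genes the KO samples lay wholly below the WT samples, as they did for 17.9% of all genes tested. Only 3 genes were called, all lower (8.88% of all genes tested were called lower), and 16 had an unadjusted p under 0.05. The 3 were Spc25 (-0.91, SE 0.31, adjusted p = 0.0422), Plk4 (-0.76, SE 0.26, adjusted p = 0.0445) and Smc4 (-0.43, SE 0.12, adjusted p = 0.0158). Without KO Th0 and KO Th1 samples 1, which are not in this comparison but set the shared spread, 39 of the 47 were called lower (18.9% of all genes tested were called in either direction). Fitted to the Th2 samples alone, 37 were called (9.07% of all genes tested). Leaving out WT Th2 sample 1 left none, and leaving out WT Th2 sample 2 left 2.

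Bub1 had the largest change in Th2, with 8.49, 8.37 and 8.23 in KO Th2 samples, against 9.92, 9.19 and 9.52 in WT Th2 samples (-1.18, SE 0.47, adjusted p = 0.0897, and 0.000179 without KO Th0 and KO Th1 samples 1). The groups did not overlap. Anln had 8.34, 8.05 and 8.33 in KO Th2 samples, against 9.43, 9.21 and 9.46 in WT Th2 samples (-1.13, SE 0.42, adjusted p = 0.0646). Its groups lay apart as well. Ttk was at -1.08, Kif11 at -0.81, Mki67 and Cdk1 both at -0.62 and Foxm1 at -0.72, none of them called with all samples. Plk1 (-0.38), Cenpa (-0.31) and Pttg1 (-0.01) had the smallest changes.

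In KO over WT cells of Th17, all 47 changes were again negative, with a median of -0.64 against -0.02 over all genes tested. For 46 genes, all but Pttg1, the KO samples lay wholly below the WT samples, as they did for 17.5% of all genes tested. With all samples only Smc4 was called (-0.55, SE 0.12, adjusted p = 0.00392), where 4.18% of all genes tested were called lower, and 9 genes had an unadjusted p under 0.05. Without KO Th0 and KO Th1 samples 1, 25 of the 47 were called lower (9.98% of all genes tested in either direction), and in a fit to the Th17 samples alone, 44 (9.77%).

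Birc5 had the largest change in Th17, with 6.98, 6.66 and 7.08 in KO Th17 samples, against 7.75, 7.74 and 8.0 in WT Th17 samples (-0.92, SE 0.43, adjusted p = 0.215, and 0.00867 without KO Th0 and KO Th1 samples 1). Ttk had 7.30, 7.39 and 7.50 in KO Th17 samples, against 8.46, 8.08 and 8.30 in WT Th17 samples (-0.88, SE 0.43, adjusted p = 0.241). In both genes the lowest WT sample was above the highest KO sample. Spc25 was at -0.79, Bub1 at -0.75, Kif11 at -0.68, Cdk1 at -0.57, Plk1 and Mki67 both at -0.50, and Ccnb2 at -0.48. Cenpa (-0.17) and Pttg1 (-0.13) had the smallest changes.

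Smc4 had levels of 10.96, 10.74 and 10.76 in KO Th2 samples, against 11.33, 11.20 and 11.23 in WT Th2 samples. In Th17 it had 10.44, 10.50 and 10.74 in KO samples, against 11.05, 11.08 and 11.22 in WT samples. In both conditions its KO samples lay below its WT samples, the opposite order to Th0.

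In Treg and naive cells the KO and WT samples were mixed. The median over the 47 genes was 7.19, 7.31 and 7.96 in KO Treg samples, against 8.07, 7.23 and 7.57 in WT Treg samples. Of the 47 genes, Smc4 was called in Treg (-0.55, SE 0.12, adjusted p = 0.00632), where 2.51% of all genes tested were called lower. Its levels overlapped, at 11.20, 11.08 and 11.56 in KO Treg samples, against 11.51, 11.95 and 12.04 in WT Treg samples. Only Racgap1 (-0.43, SE 0.31, adjusted p = 0.589) had all KO samples below all WT samples, as had 12% of all genes tested. The median change was -0.16, against -0.03 over all genes tested, and Cdk1 was at -0.01 (SE 0.45), Bub1 at -0.18 and Mki67 at -0.28. With 3 samples a group and an SE of that size, a small difference in Treg was not detectable.

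In KO over WT naive cells, limma called none of the 47 genes, where 1.15% of all genes tested were called in either direction. At an unadjusted p under 0.05 there was 1, Racgap1 (-0.64, SE 0.31, adjusted p = 0.609). Racgap1, Ndc80, Kif22 and Top2a had all KO samples below all WT samples, as had 5.8% of all genes tested, and Kif20a, a motor of cytokinesis, had all KO samples above, as had 6.55%. The median change was -0.05, against -0.02 over all genes tested. Ndc80 had 7.49, 7.60 and 7.58 in KO naive samples, against 8.19, 8.28 and 7.91 in WT naive samples (-0.57, SE 0.39, adjusted p = 0.81).

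**Figure D4:**
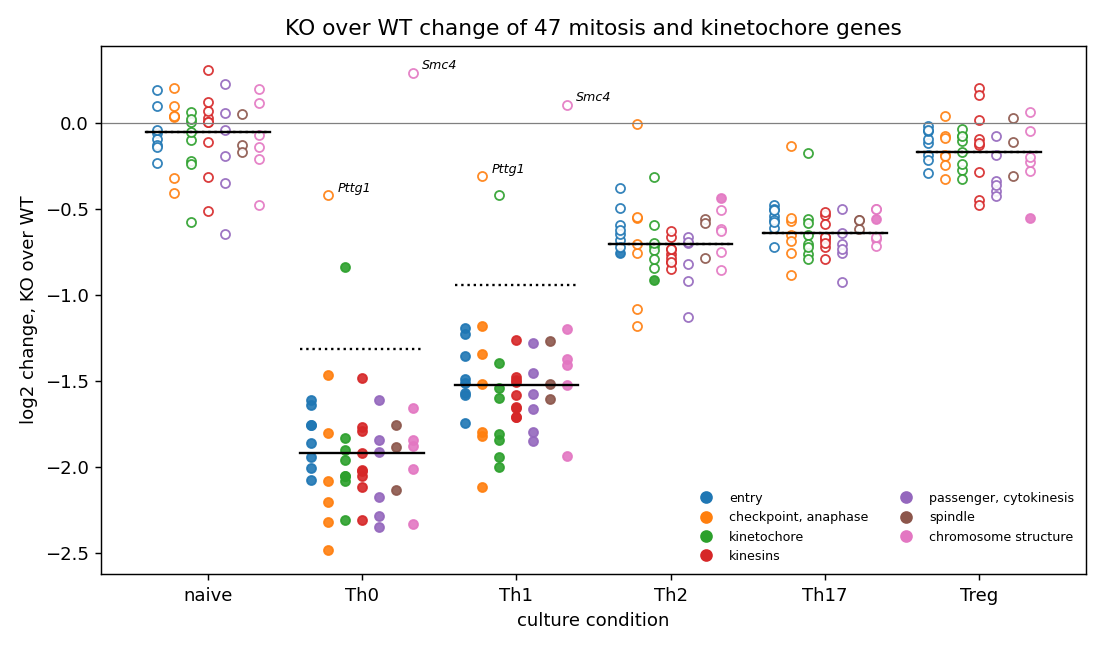
Log2 change of KO over WT for each of the 47 genes (circles, coloured by role) in each culture condition, filled where called at an adjusted p under 0.05. Solid lines are the median over the genes with all samples and dotted lines that without KO Th0 sample 1 and KO Th1 sample 1, at -1.31 in Th0 and -0.94 in Th1. The medians with all samples are -0.05 in naive cells, -1.92 in Th0, -1.52 in Th1, -0.70 in Th2, -0.64 in Th17 and -0.16 in Treg.

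Sgo1, the shugoshin that guards centromeric cohesion, is the current symbol of Sgol1. It fell in KO Th0 (-1.42, SE 0.29, adjusted p = 0.000302) and in KO Th1 (-1.22, SE 0.29, adjusted p = 0.00122) relative to WT. In Th2 it had 9.98, 10.04 and 10.02 in KO samples, against 9.89, 9.52 and 9.58 in WT samples (0.35, SE 0.29, adjusted p = 0.461), with all KO samples above the WT samples. The change of Sgo1 in Th2 was thus not called. The difference of its KO effect between Th2 and Th0 passed (1.77, SE 0.41, adjusted p = 0.00594), where the median difference over the 47 genes was 1.22. That difference is given only with KO Th0 sample 1 included. The KO over WT change of Sgo1 was -0.80 (adjusted p = 0.0861) in Th17 and -0.58 (adjusted p = 0.34) in Treg.

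The difference of the KO effect between conditions was tested as an interaction, and the 5 differences against Th0 or naive cells share samples. The fall in KO Th0 cells was larger than in naive cells for 38 of the 47 genes, where 10.4% of all genes tested were called lower, with a median difference of -1.81. The largest were in Ncapg2 (-2.53, SE 0.59, adjusted p = 0.00382), Ttk (-2.36) and Kif20a (-2.36), and Cenpa (-0.90, adjusted p = 0.0617), Pttg1 and Smc4 had the smallest. The median over the 47 genes averaged 5.72 in naive KO and 5.77 in naive WT samples. All naive samples lay below the table-wide median for 12 genes in KO and 9 in WT cells. Whether low naive levels limited a fall there was not tested. With a median KO over WT change of -0.05 in naive cells, this difference largely restates the one between KO and WT Th0 cells. Between Treg and Th0, 37 genes had a higher KO effect in Treg (13.1% of all genes tested were called higher), with a median difference of 1.79 over the 47, led by Kif15 (2.51, SE 0.66, adjusted p = 0.00574), Ncapg2 (2.40) and Bub1 (2.30). Smc4 went the other way (-0.85, SE 0.18, adjusted p = 0.000916), where 13.9% were called lower. Without KO Th0 sample 1 alone, 17 genes were called between Th0 and naive cells, and 20 between Treg and Th0. Without both KO Th0 sample 1 and KO Th1 sample 1, 39 were called in each of these differences (13.8% and 22.4% of all genes tested), with medians of -1.23 and 1.19.

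Between Th1 and Th0, limma called no difference in the KO effect (0.589% of all genes tested were called in either direction), and none of the 47 genes had an unadjusted p under 0.05. The median difference was 0.39. Between Th2 and Th0, Espl1 was called higher (1.38, SE 0.43, adjusted p = 0.0365; 4.97% of all genes tested) and Smc4 lower (-0.73, SE 0.18, adjusted p = 0.00837; 5.22%), with a median of 1.22 and 34 genes at an unadjusted p under 0.05. Between Th17 and Th0, Kif22 (1.58), Spc24 (1.50), Espl1 (1.39) and Plk4 (1.14) were called higher (7.41% of all genes tested) and Smc4 lower (-0.85; 8.22%), with a median of 1.32 and 38 genes at an unadjusted p under 0.05. These counts turned on 1 library, since without KO Th0 sample 2 there were 32 calls between Th2 and Th0 and 40 between Th17 and Th0. Without both low samples there were 3 and 7 (7.12% and 11.9% of all genes tested), with medians of 0.63 and 0.72.

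The comparison of each WT lineage with WT Th0 asks how these genes vary among stimulated cells that have TRIM28. In WT Treg, 46 of the 47 genes were lower than in WT Th0 (22.4% of all genes tested were called lower), 45 of them by at least 2-fold (6.03%), and for 46 genes the Treg samples lay wholly below the Th0 samples (27.2%). The median change was -2.26, against 0.00 over all genes tested. Aurkb had 8.42, 7.75 and 7.98 in WT Treg samples, against 10.79, 10.85 and 10.84 in WT Th0 samples (-2.78, SE 0.42, 6.85-fold lower, adjusted p = 4.37e-06). Its Treg levels lay far below its Th0 levels and above its naive levels. Ncapg2 fell by 2.74 and Kif15 by 2.65, and Pttg1 fell by 0.83 (SE 0.24, adjusted p = 0.00696), the one comparison among KO against WT and WT lineage against WT Th0 in which it was called. Smc4 was the exception again (0.08, SE 0.12, adjusted p = 0.654).

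WT Th1 cells could not be told from WT Th0 cells by these genes. None was called, where 10.8% of all genes tested were called in either direction, and none had an unadjusted p under 0.05. The changes ran from -0.23 (Kif18a, a motor that dampens chromosome movements) to 0.26 (Dlgap5, a spindle-assembly protein), with a median of -0.02. For 9 genes the Th1 samples lay wholly below the Th0 samples, against 20% of all genes tested, and for 4 wholly above, against 14.5%.

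WT Th2 and WT Th17 cells were slightly lower than WT Th0 cells. In Th2 the changes had a median of -0.59, against -0.06 over all genes tested, and for 43 genes the Th2 samples lay wholly below the Th0 samples (31.6% of all genes tested). Called lower were 5 (22.9% of all genes tested), namely Racgap1 (-0.89), Cenpi, a kinetochore protein (-0.87), Kif18a (-0.87), Plk4 (-0.82) and Smc4 (-0.50). Kif20a had the largest change (-0.93, SE 0.42, adjusted p = 0.0799), and Kif23 was at 0.10. In Th17 the median was -0.66, against -0.04 over all genes tested, and 46 genes lay wholly below Th0 (29.6% of all genes tested). There 5 were called lower (18.8% of all genes tested), namely Racgap1 (-0.89), Foxm1 (-0.87), Espl1 (-0.82), Plk4 (-0.71) and Smc4 (-0.64), and Birc5 had the largest change (-0.96, SE 0.43, adjusted p = 0.0807). Without KO Th0 and KO Th1 samples 1, which neither comparison holds, 31 genes were called in Th2 (41.3% of all genes tested) and 39 in Th17 (40.6%), and in fits to only the groups compared, 42 (39.4%) and 46 (43.8%). Samples of the same number in WT Th2 and WT Th0 deviated together, and with the replicate as a block within genotype 8 genes were called in Th2. Leaving out 1 sample of these groups left 1 to 5 calls in Th2 and 1 to 4 in Th17, with 1 call without WT Th2 sample 2 and without WT Th0 sample 1.

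**Figure D5:**
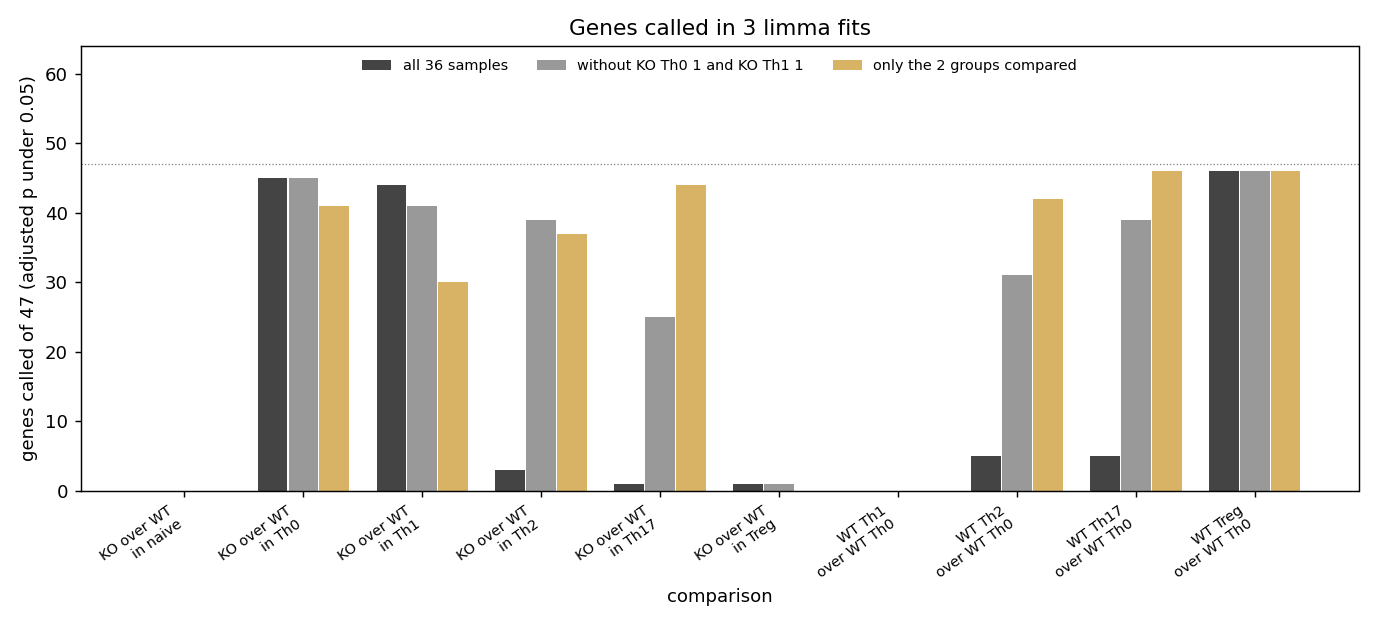
Number of the 47 genes called at an adjusted p under 0.05 in 10 comparisons, under 3 limma fits (all 36 samples, without KO Th0 sample 1 and KO Th1 sample 1, and only the 2 groups compared). The dotted line is at 47. In KO over WT in Th2 the counts are 3, 39 and 37, and in KO over WT in Th17 they are 1, 25 and 44, while KO over WT in Treg has at most 1 in each fit.

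Among KO cells the same contrasts had another form, since KO Th0 itself was low and spread. In KO Treg over KO Th0, Cenpa (-0.92, SE 0.24, adjusted p = 0.00577) and Smc4 (-0.77, SE 0.12, adjusted p = 3.23e-05) were called lower (12% of all genes tested), and the median change was -0.46. When KO Th0 and KO Th1 samples 1 were left out, 46 of the 47 genes were called (18.6% of all genes tested in either direction), with a median of -1.06. In KO Th2 over KO Th0, Aurkb (1.05), Kif23 (0.95) and Ncaph, a condensin I subunit (0.87), were called higher (18.4% of all genes tested) and Smc4 lower (-1.23; 24.8%). In KO Th17 over KO Th0, 6 were called higher (25.4% of all genes tested), namely Bub1 (1.20), Aurkb (1.17), Tpx2 (1.08), Cdc25c, a phosphatase that activates CDK1 (0.95), Dlgap5 (0.93) and Spc24 (0.74), and Smc4 lower (-1.49; 26.2%). Without KO Th0 and KO Th1 samples 1, 1 gene was called in each of these 2 contrasts (38.2% and 45.9% of all genes tested), and without KO Th0 sample 2, 30 and 32. In KO Th1 over KO Th0, 46 of the 47 changes were positive, with a median of 0.37 against -0.04 over all genes tested. Same-numbered samples of these groups pair, and the median over the 47 genes was 7.22, 9.36 and 8.94 in KO Th1 samples 1, 2 and 3, against 6.67, 8.92 and 8.31 in KO Th0 samples 1, 2 and 3. It was higher in Th1 in each pair, and 40 of the 47 genes were higher in Th1 in all 3 pairs. The genes moved together within a sample, so this count rests on 3 pairs of samples. Its share over all genes tested was not computed. Smc4 apart, none of the 47 was called with or without the replicate block within genotype (3.36% of all genes tested were called higher), and the median was -0.21 without KO Th0 sample 1 alone. Smc4 was called lower (-0.41, SE 0.12, adjusted p = 0.039; 5.14% of all genes tested were called lower), and without KO Th0 and KO Th1 samples 1 none was called, while without KO Th1 sample 1 alone 21 were.

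Smc4 was thus called lower in each lineage condition against Th0 among KO cells, and in Th2 and Th17 among WT cells. Its mean level was 11.77 in KO naive, 12.05 in KO Th0, 11.64 in KO Th1, 10.82 in KO Th2, 10.56 in KO Th17 and 11.28 in KO Treg. In the WT groups it was 11.65 in naive, 11.75 in Th0, 11.54 in Th1, 11.25 in Th2, 11.11 in Th17 and 11.83 in Treg. Its order over the conditions was unlike that of the other genes, for which the naive groups were the lowest in the median over the genes, Treg next and Th0 and Th1 of WT cells the highest.

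Other genes of the cell cycle, listed by their known roles with earlier results of these data known, are set beside the 47. Of 62 measured genes of mitosis outside the list, 56 were lower in KO than WT Th0 cells and 59 in Th1, none higher in either, with medians of -1.67 and -1.36. Of all genes tested, 19.6% were called lower in Th0 and 23.7% in Th1. The largest change in both was in Shcbp1, a protein of the midbody (-2.60 in Th0 and -2.11 in Th1). In Th2, 8 of the 62 were called lower (8.88% of all genes tested) and 1 higher, and in Th17 the counts were the same (4.18% of all genes tested called lower), with medians of -0.57 and -0.54. The gene called higher in each (7.51% of all genes tested in Th2 and 4.03% in Th17) was Cdc25b, a phosphatase that activates CDK complexes, at 0.99 (SE 0.25, adjusted p = 0.0054) in Th2 and 1.34 (SE 0.25, adjusted p = 0.000483) in Th17. In Treg and naive cells none of the 62 was called.

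Genes of earlier steps of the cycle were lower too. All 20 DNA replication genes were lower in KO than WT cells in both Th0 and Th1 (19.6% and 23.7% of all genes tested were called lower). They were led by Cdc6, a loader of the replicative helicase (-2.56 in Th0 and -2.09 in Th1). In Th2, 1 of the 20 was called lower (Cdt1, a licensing factor, -0.39), a share below the 8.88% of all genes tested. In Th17 4 were (4.18% of all genes tested), and in Treg none. Of 8 cyclin and kinase genes of the G1 and S phases, 6 were lower in each of Th0 and Th1 (19.6% and 23.7% of all genes tested). They were led by Cdk6, a partner of D-type cyclins (-2.11 in Th0 and -2.01 in Th1). Cdk6 was also lower in KO Treg (-1.39, SE 0.26, adjusted p = 0.000905). Of 19 genes of the E2F and DREAM regulators, 13 were lower and 1 higher in Th0 (19.6% and 16.8% of all genes tested) and 15 lower in Th1 (23.7%). E2f8, an atypical repressor E2F, was at -2.42 in Th0 and -1.81 in Th1.

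Genes known to hold cells in rest moved the other way. Of 7 measured, 6 were higher in KO than WT cells in Th0 (16.8% of all genes tested were called higher) and 6 in Th1 (17%). Among them were Btg1 (1.06 in Th0 and 0.95 in Th1) and Btg2 (0.81 and 1.26), which encode antiproliferative factors, and Klf2 (0.72 and 0.92), a transcription factor of resting T cells. In Th2, 4 were higher (7.51% of all genes tested), and 1 was lower in Th17 (Tsc1, -0.25) and in Treg (Foxo1, -0.35), where 4.18% and 2.51% of all genes tested were called lower. Among inhibitors of cyclin-dependent kinases, Cdkn1b, which encodes p27, was higher in KO Th0 (0.59) and KO Th1 (0.88) cells. Cdkn1a, which encodes p21, was lower in both (-1.68 and -1.80), as was Cdkn2c (-1.44 and -1.05). In WT Th0 over WT naive cells, Cdkn1a and Cdkn2c had risen by 4.54 and 3.89.

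Markers of other cells moved with these groups in part. Of 3 B-cell genes tested, H2-Ab1 (-0.80) and Cd79b (-0.50) were lower in KO Th0 cells, and H2-Ab1 (-1.65) and Pax5 (-0.32) in KO Th1 cells. H2-Ab1 was also lower in KO Th2 (-0.67), and Cd79b was higher in KO Th17 (0.51) cells. Of 4 CD8 and NK genes tested, Klrd1 was higher (1.38) and Cd8b1 lower (-0.59) in KO Th0 cells, and Gzma was lower in KO Th1 (-0.62) and higher in KO Th2 (1.91) and KO Th17 (1.16) cells. Cd8a was higher in KO Treg cells (1.02, SE 0.24, adjusted p = 0.00775), with all KO samples above the WT samples. Of 6 myeloid genes tested, Mpeg1 was lower in KO Th1 (-0.91), Adgre1 higher in KO Th2 (1.10) and Itgam higher in KO Th17 (0.77) and KO Treg (1.72) cells. Their part in the results was not tested.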

How the data were processed

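CD4 T cells of 12 groups of 3 samples were measured on Affymetrix arrays. Per the submitters' processing notes, the authors ran RMA (oligo, R 3.1.0) and deposited the resulting log2 values; the annotation version is not given in the sources used here. These log2 values, from 2.05 to 13.5 over 41345 probe sets, were used with no further scaling. Of the probe sets, 23521 had 1 symbol in the platform annotation, 1814 several and 16010 none. Those with 1 symbol gave 22180 genes, taking the probe set with the highest mean where a gene had several. Genes above the table-wide median (5.26) in at least 3 samples were tested, 13082 in all.

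A mean for each group was fitted to all 36 samples with limma 3.58.1 in R 4.3.3 (24 residual degrees of freedom), and 21 comparisons were taken from it, each adjusted by the Benjamini-Hochberg method over all genes tested. The genes, their grouping by role and the other lists were chosen with earlier results of these data known. Named with values were Mki67, Bub1, Birc5, Aurkb, Kif11, Cdk1, Foxm1, Plk1 and Cenpa, the 3 largest and 3 smallest changes of a comparison, the extremes of each role, genes that moved against the others, and up to 4 called genes of another list. Further genes were named after their values were seen.

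Same-numbered samples deviated together (correlation over 0.1 for each number) in WT Th1 with WT Th0 (0.387, 0.33 and 0.23), WT Th2 with WT Th0 (0.25, 0.119 and 0.112), KO Th1 with KO Th0 (0.697, 0.602 and 0.511) and KO Treg with KO Th0 (0.227, 0.134 and 0.299). No other pair of groups compared did so for all 3 numbers. Alternatives were no filter, a stricter filter, other scalings, averaging the probe sets of a gene, another prior, array weights, replicate blocks and the groups compared alone. Each sample of the groups compared was also left out in turn. Leaving out KO Th0 and KO Th1 samples 1 together and holding naive levels at the table-wide median were chosen after seeing the data. The steps were tested on simulated data with known changes between KO and WT Th17. Each gene had the same spread in all groups there, with no low samples. The simulation thus does not bear on the wide spread of KO Th0 and KO Th1. The number of arrays limits the precision.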

Additional observations from a re-analysis of the deposited data

Results flagged for a closer look

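Differences of the KO effect between conditions were called by limma's interaction test in 4 of the 5 differences computed, in 2 of them for a smaller share of the 47 genes than of all genes tested. The median over the 47 genes averaged 5.72 in naive KO and 5.77 in naive WT samples, and whether such levels limited a fall there was not tested. Between Th0 and naive cells the KO effect differed for 38 genes, all lower in Th0 (18.5% of all genes tested differed), and between Treg and Th0 for 38 genes, 37 of them higher in Treg (27%). Between Th17 and Th0 it differed for 5 of the 47 genes and between Th2 and Th0 for 2, shares below the 15.6% and 10.2% of all genes tested. With 3 samples a group, no test for a single outlying sample was run.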

How the results depend on the processing

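The number of the 47 genes called moved with the samples in the fit. Without KO Th0 and KO Th1 samples 1 together there were 39 calls for KO over WT in Th2, 25 in Th17, 31 for WT Th2 over WT Th0 and 39 for WT Th17 over WT Th0; among KO cells over KO Th0 the counts were 0 in Th1, 1 in Th2, 1 in Th17 and 46 in Treg. Fits to only the groups compared gave 37, 44 and 0 for KO over WT in Th2, Th17 and Treg, 42 and 46 for WT Th2 and WT Th17 over WT Th0, and 0, 1, 1 and 1 for KO Th1, Th2, Th17 and Treg over KO Th0. There the difference of the KO effect had 24 calls between Th0 and naive cells, 1 between Th2 and Th0 and 22 between Treg and Th0. Array weights gave 5 and 16 for KO over WT in Th2 and Th17, 38 and 32 for WT Th2 and WT Th17 over WT Th0, 16 for KO Treg over KO Th0, and 39 and 34 for the differences of Th2 and Th17 from Th0. With no filter, KO over WT in Th2 had 1 call, KO Th1 and KO Th2 over KO Th0 had 0 and 2, and the Th2 difference from Th0 had 1. Repeating quantile normalization gave 9 for WT Th17 over WT Th0. Cyclic loess gave 1 for KO over WT in Th2, 7 for KO Th2 over KO Th0 and 9 for the Th17 difference from Th0.

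With the replicate number as a block within genotype, the counts were 33 and 15 for KO over WT in Th2 and Th17, 8 and 9 for WT Th2 and WT Th17 over WT Th0, 8 and 13 for KO Th2 and KO Th17 over KO Th0, and 5 and 17 for the differences of Th2 and Th17 from Th0. As a random block it gave 8 for the Th17 difference from Th0. A plain replicate block gave 45, 44, 3 and 1 calls for KO over WT in Th0, Th1, Th2 and Th17, the counts without it. For the pairs of groups whose numbers pair the samples, the block within genotype moved no count by over 1.5 times other than that of WT Th2 over WT Th0.

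Each sample was left out in turn only for the comparisons that hold its group. The ranges that follow therefore leave out no single sample from outside a comparison, although such samples also set the shared spread. On this footing KO over WT had 42 to 45 calls in Th0, 25 to 44 in Th1, 0 to 2 in Th2, 1 in Th17, 0 to 1 in Treg and 0 in naive cells. Th0 over naive cells had 45 in WT and 37 to 43 in KO cells. Over Th0, WT cells had 0 in Th1, 1 to 5 in Th2, 1 to 4 in Th17 and 46 in Treg, and KO cells 0 to 21 in Th1, 1 to 30 in Th2, 1 to 32 in Th17 and 1 to 30 in Treg. The differences of the KO effect had 17 to 45 calls between Th0 and naive cells, 0 between Th1 and Th0, 1 to 32 between Th2 and Th0, 1 to 40 between Th17 and Th0 and 20 to 45 between Treg and Th0. Shares over all genes tested are not given here for the fits with 1 sample left out. No called gene changed direction under the alternatives run, and what besides fewer samples or genes moved the counts was not tested. A stricter filter, median centring, averaging probe sets and a trended or robust prior moved no count by over 1.5 times. Signal near background limits the naive levels of these genes.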
